A study of Rattus norvegicus with 6 samples.

Results

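Transcripts of 9 organic cation and anion carriers of the renal tubule were followed in rat renal cortex: Slc22a2, Slc22a4, Slc22a5, Slc22a6, Slc22a7, Slc22a8, Slc22a12, Slc47a1 and Slco4c1. They were chosen by family and by their role as candidate routes for a small diamine cation, not by their values, and every probe whose RefSeq accession maps to one of these symbols was taken. This gave 18 of the 61515 usable probes. Of these, 17 were kept because all 3 arrays of at least 1 group were well above background, and through them all 9 genes were among the 11530 genes tested. The rats were 6 male Sprague-Dawley (Crl:CD(SD)) animals bought at 5 weeks of age and kept on a basal diet, with 1 array of renal cortex RNA per animal. For 4 weeks, 3 rats received water and 3 received ethylenediamine dihydrochloride, the salt of a small diamine, at 500 mg/kg/day. All values below are log2 intensity minus the 75th percentile of the array, a scale on which different probes cannot be set against each other. A fold change is the ethylenediamine mean minus the water mean.

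Arrays lay on 2 slides, scanned separately. The first carried all 3 water arrays together with 1 treated array, that of replicate 1, and the second carried the treated replicates 2 and 3 alone. Between 35691 and 40843 probes were well above background, with the lowest number on ethylenediamine replicate 1. On the tissue check, 12 of 12 proximal tubule markers, 5 of 5 podocyte markers and 4 of 4 thick ascending limb markers were well above background on all 6 arrays, as were 3 of 4 inner medullary markers. The RNA came from whole cortex, so fewer cells of a type and less RNA per cell cannot be told apart.

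The proximal tubule secretes organic cations and anions in 2 steps, uptake from blood across the basolateral membrane and release into urine across the brush border. OCT2, the product of Slc22a2, takes up cations along the membrane potential, and MATE1, the product of Slc47a1, releases them in exchange for protons. OAT1 and OAT3, the products of Slc22a6 and Slc22a8, take up anions in exchange for dicarboxylates, and the related carriers Slc22a7 and Slc22a12 handle other anions and urate. Slc22a4 and Slc22a5 encode OCTN1 and OCTN2, of which OCTN2 recovers filtered carnitine with sodium. Slco4c1 encodes an organic anion transporting polypeptide of the tubule.

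None of the 9 carriers differed between the groups past the threshold, an adjusted p under 0.05 by limma over all genes tested. Slc22a5 stood lower on all 3 treated arrays than on any water array, with a fold change of -0.24 ± 0.07 on the log2 scale (SE, 3 rats in each group). Slc22a7, Slco4c1 and Slc22a2 had the largest positive fold changes, at 1.42 ± 1.00, 0.93 ± 0.34 and 0.57 ± 0.29, each carried by ethylenediamine replicates 2 and 3. OAT1, OAT3 and MATE1 transcripts differed from the water mean by at most 0.05 by their brightest probes. Of the 9 genes, 0 were called, as were 0 of 11530 genes (0%). At an unadjusted p under 0.05 by limma there were 2 members, where 10.4% of all genes passed. Slco4c1 was the 1 on the higher side (5.37% of all genes) and Slc22a5 the 1 on the lower side (5.03%), and 1 of 9 is the smallest share above 0 that the list can show. The groups did not overlap for 2 members, against 17.6% of all genes: Slc22a6 higher (9.18% of all genes) and Slc22a5 lower (8.39%). The members' median fold change was 0.14, with 8 of 9 positive, beside -0.004 and 48.8% positive over all genes. On slide 1 alone the members' median was 0.03, with 5 of 9 positive. With the mean of the probes of each gene 6 of 9 were positive, and under median or quantile scaling 7 of 9.

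**Figure D1:**
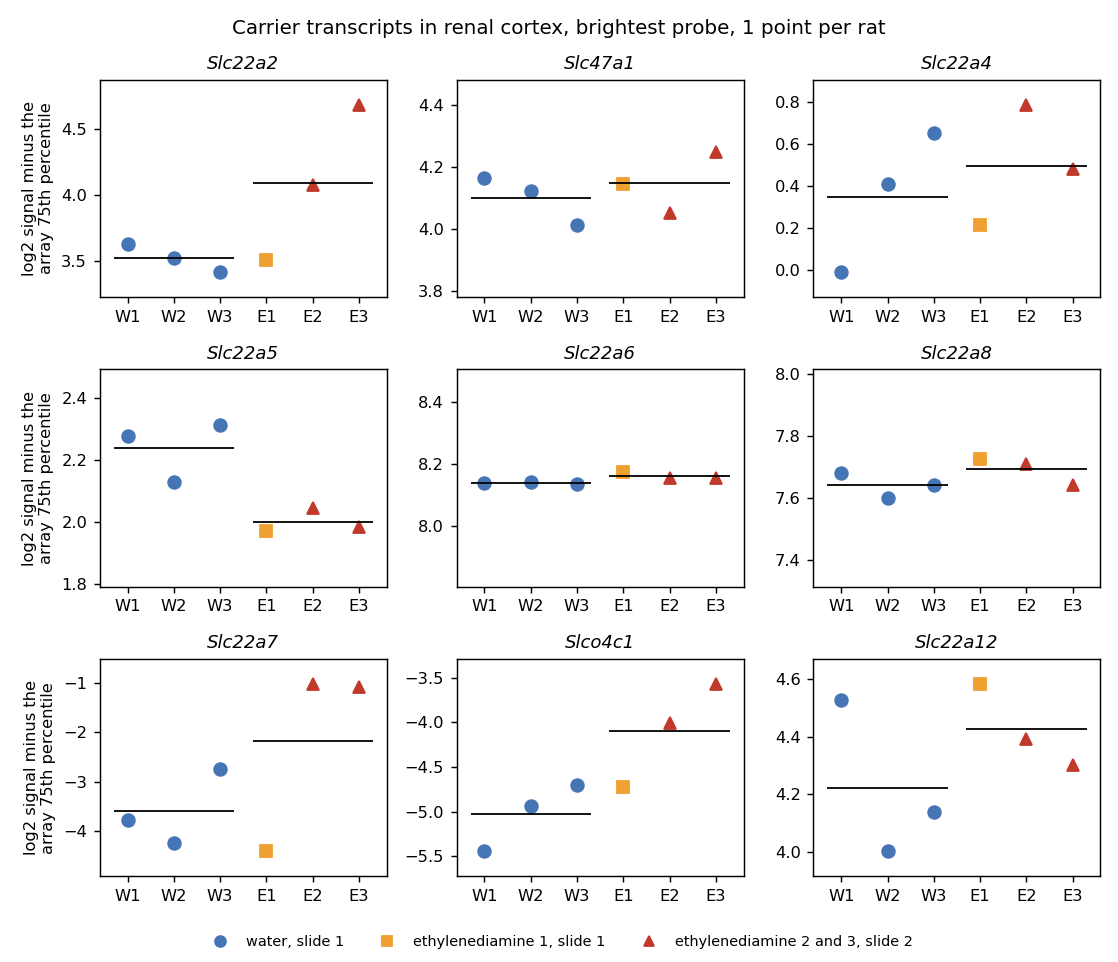
Log2 signal of the brightest probe of each carrier, minus the array's 75th percentile, on the 3 water arrays (W1 to W3) and 3 ethylenediamine arrays (E1 to E3), with 1 point per rat and a line at each group mean. Each panel has its own vertical scale. Slc22a5 is the carrier with all 3 treated points below the water points, while Slc22a2, Slc22a7 and Slco4c1 are high on ethylenediamine replicates 2 and 3 and within or below the water range on replicate 1.

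Slc22a2 encodes OCT2, the main basolateral cation carrier of the proximal tubule. Its brightest probe read 3.63, 3.52 and 3.41 on water replicates 1 to 3, and 3.50, 4.08 and 4.69 on ethylenediamine replicates 1 to 3. Replicates 2 and 3 lay above every water array, and replicate 1 lay among them, so that the groups overlapped. The group means were 3.52 ± 0.11 and 4.09 ± 0.59 (SD, n = 3). Their difference, 0.57, had a 95% interval from -0.15 to 1.29 (adjusted p = 0.559 by limma), which holds values from a small decrease to more than a doubling. The other probe of the gene read 1.01, 0.73 and 0.81 in water and 0.77, 1.55 and 1.93 in treated rats, the same pattern at a fold change of 0.56 ± 0.29. Within slide 1 the value was -0.02. Without ethylenediamine replicate 1 it was 0.86 (adjusted p = 0.233), and without replicate 3 it was 0.27. Leaving out replicate 1 puts each group on its own slide, so treatment and slide cannot be told apart in that value.

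MATE1, which completes cation secretion at the brush border, had no such spread. Slc47a1 read 4.16, 4.12 and 4.01 in water and 4.15, 4.05 and 4.25 in treated rats, with full overlap. The fold change was 0.05 ± 0.08, with a 95% interval from -0.14 to 0.24 (adjusted p = 0.841). Its other probe gave -0.02 ± 0.10. By the brightest probes, the array with the highest OCT2 value, ethylenediamine replicate 3, also had the highest Slc47a1 value. Replicate 2, next for OCT2, was the lowest treated array for Slc47a1. The other Slc47a1 probe was highest on water replicate 1, at 3.56 against 3.46 on ethylenediamine replicate 3.

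Slc22a5, which encodes the carnitine carrier OCTN2, read 2.28, 2.13 and 2.31 in water and 1.97, 2.04 and 1.99 in treated rats. Every treated array lay below every water array. The difference of -0.24 had a 95% interval from -0.41 to -0.07, with an unadjusted p of 0.0134 and an adjusted p of 0.369 by limma across the genes. Ethylenediamine replicate 1 alone, on the slide it shared with the water arrays, stood at -0.27, so the size was no smaller within slide 1, where the adjusted p was 0.633. Leaving out any 1 array kept the value between -0.295 and -0.203. The dimmer probe did not repeat the separation: it read 0.54, 0.33 and 0.57 in water and 0.15, 0.53 and 0.55 in treated rats, low on replicate 1 only, at -0.07 ± 0.13. The 2 probes of Slc22a5 differed by 0.17 in fold change, more than 80.5% of the 5892 genes with at least 2 kept probes. Slc22a4, whose product OCTN1 is a related carrier of zwitterions and cations, read -0.01, 0.41 and 0.65 in water and 0.22, 0.79 and 0.48 in treated rats. These overlapped throughout, with a fold change of 0.14 ± 0.21 (adjusted p = 0.832) and 0.12 ± 0.16 by the other probe.

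Of users of carnitine, 8 of 9 listed genes were measured and 0 were called by limma, with 0 at an unadjusted p under 0.05 and a median fold change of 0.03. The muscle-type palmitoyltransferase Cpt1b stood at -0.39 ± 0.16, the peroxisomal octanoyltransferase Crot at 0.24 ± 0.11 and the liver-type palmitoyltransferase Cpt1a at -0.30 ± 0.20.

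Slc22a6 and Slc22a8, the OAT1 and OAT3 genes, are direct neighbours in the rat annotation, and both had very bright probes. The brightest probe of Slc22a6 read 8.14 on each of the 3 water arrays and 8.17, 8.16 and 8.15 on the treated arrays. The treated values lay just above the water values, by 0.02 ± 0.05 (adjusted p = 0.899), a step far smaller than the standard error of the moderated fit. Its within-group SD was 0.0078, and only 2 of 37822 kept probes had a smaller one. Its processed intensity lay between 242000 and 275100, and the scanner's saturation value was 778785 or more. The median SD of the 227 probes above 7.5 was 0.0585. Why this probe was so flat was not tested. The dimmer probe of Slc22a6 read 4.49, 4.47 and 4.52 in water and 4.40, 4.26 and 4.27 in treated rats. All treated values lay below the water values here, at -0.18 ± 0.06 (unadjusted p = 0.0281 and adjusted p = 0.416 by limma on single probes). The probes of Slc22a6 thus separated the groups in opposite directions, and the direction for this gene is not settled by these data. Of all genes with at least 2 kept probes, 28.5% had opposite signs for their brightest 2.

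The Slc22a8 probes gave a milder form of the same picture. The brightest read 7.68, 7.60 and 7.64 in water and 7.73, 7.71 and 7.64 in treated rats, at 0.05 ± 0.05 (95% interval -0.08 to 0.19, adjusted p = 0.755). The dimmer one read 4.06, 4.02 and 4.08 in water and 4.09, 3.99 and 3.86 in treated rats, at -0.07 ± 0.07. Both sets overlapped between groups.

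Slc22a7 encodes OAT2, an anion carrier found in the last, straight segment of the rat proximal tubule. Its 1 probe read -3.78, -4.26 and -2.76 in water and -4.42, -1.02 and -1.08 in treated rats. Replicates 2 and 3 lay far above all other arrays, and replicate 1 was the lowest of the 6 and not well above background. The group means were -3.60 ± 0.77 and -2.17 ± 1.94 (SD, n = 3). The fold change of 1.42 had a 95% interval from -1.04 to 3.89 (adjusted p = 0.658), and it was -0.82 within slide 1. Without ethylenediamine replicate 1, which leaves each group on its own slide, it was 2.55 (adjusted p = 0.179). Without replicate 2 or 3 it was 0.848 or 0.88. The within-group SD of 1.48 was larger than that of 99.8% of the genes tested.

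Slco4c1, which encodes a carrier of digoxin and thyroid hormone at the basolateral membrane, read -5.45, -4.94 and -4.70 in water and -4.725, -4.005 and -3.573 in treated rats. These signals were near the floor of detection: the lowest signals well above background ran from -5.55 to -4.45 over the arrays, and on ethylenediamine replicate 1 this probe was not well above it. Replicates 2 and 3 exceeded all water arrays and replicate 1 did not. The fold change of 0.93 had a 95% interval from 0.10 to 1.75, with an unadjusted p of 0.0334 and an adjusted p of 0.449 by limma across the genes. It was 0.51 with normexp background correction and 0.30 within slide 1. Without ethylenediamine replicate 1, which leaves each group on its own slide, it was 1.24. The second probe of the gene was not well above background on any array, so no fold is given for it.

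Slc22a12 encodes URAT1, the urate reabsorber of the brush border. Its brightest probe read 4.528, 4.002 and 4.137 in water and 4.58, 4.39 and 4.30 in treated rats. Water replicate 1 was as high as the treated arrays, and the groups overlapped. The fold change was 0.20 ± 0.15 (adjusted p = 0.68), and the other 2 probes gave 0.19 and 0.12. Leaving out 1 array gave 0.355 without water replicate 1, 0.093 without water replicate 2 and 0.124 without ethylenediamine replicate 1. All 3 probes were high on water replicate 1.

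**Figure D2:**
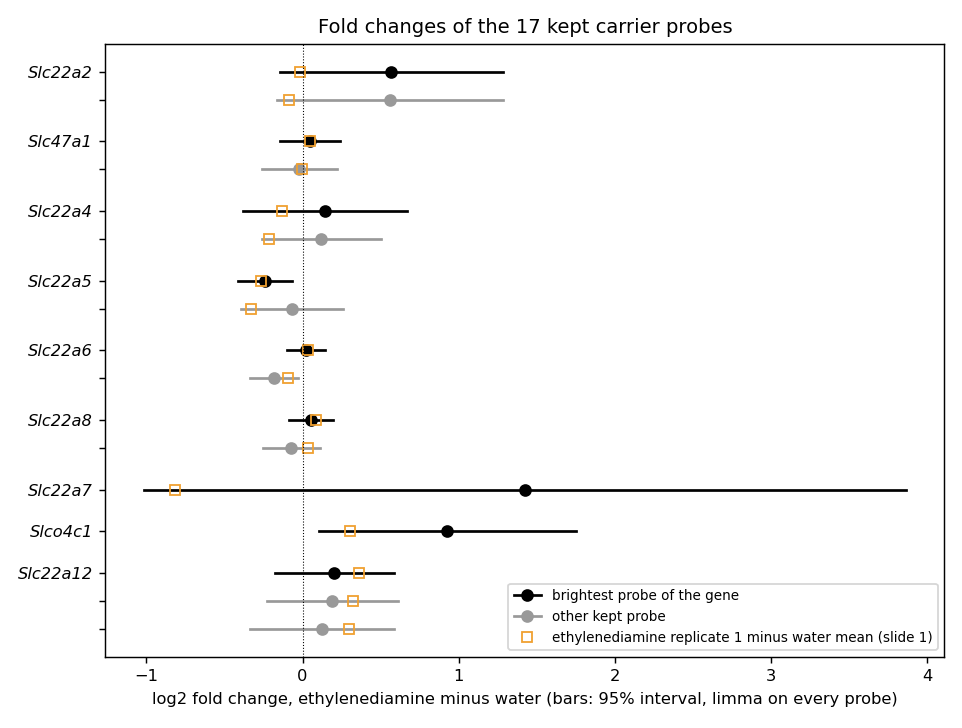
Log2 fold changes, ethylenediamine minus water, of the 17 kept carrier probes, with 95% intervals from limma fitted to every probe. Black marks the brightest probe of a gene, grey the other probes and open squares the difference of ethylenediamine replicate 1 from the water mean. The open squares for Slc22a2, Slc22a4 and Slc22a7 lie below 0 although the group values lie above it, and the 2 probes of Slc22a6 fall on either side of 0.

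Tested as single probes, 0 of the 17 kept probes were called by limma, against 0.0106% of 37822 probes. The smallest adjusted p was 0.379. At an unadjusted p under 0.05 there were 3 carrier probes, 1 higher and 2 lower, where 10.7% of all probes passed, 4.83% higher and 5.88% lower. For 3 carrier probes, 1 higher and 2 lower, the groups did not overlap, against 18% of all probes, 8.35% higher and 9.66% lower. Of the 7 carriers with more than 1 kept probe, Slc22a2, Slc22a4, Slc22a5 and Slc22a12 kept 1 sign over their probes, and Slc22a6, Slc22a8 and Slc47a1 did not.

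The 3 carriers Slc22a2, Slc22a7 and Slco4c1 shared a pattern over the arrays. In each, ethylenediamine replicates 2 and 3 both lay above all 4 arrays of slide 1, which held for 11.9% of all genes, and 0 of 9 members lay below them, which held for 12% of all genes. Whether this pattern belongs to the slide, to those 2 rats or to treatment cannot be told apart, since slide 2 held no water array. Among 17 measured carriers of the same families outside the 9, 5 were placed the same way, among them Slco4a1, which was high on replicate 1 too. Slco1a1 read -0.96, -0.27 and 0.06 in water and -1.55, 1.11 and 1.71 in treated rats. Slco1a3, known as OAT-K and expressed in the straight proximal tubule, read 1.81, 2.09 and 2.24 in water and 1.82, 3.38 and 4.06 in treated rats. Slco1a6 and the anion carrier Slc22a24 had fold changes of 1.18 ± 0.72 and 0.38 ± 0.18, and both stood near or below 0 within slide 1, at -0.43 and -0.02. These genes were picked after their values were seen.

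The amino acid carrier Slc7a13, a marker of the last proximal segment, was high and low on the same arrays. It read 2.87, 2.99 and 3.90 in water and 2.26, 5.27 and 5.75 in treated rats, with replicates 2 and 3 high, replicate 1 lowest and a fold change of 1.18 ± 0.94 (adjusted p = 0.691). Water replicate 3 was the highest water array for Slc7a13, Slc22a7, Slco1a1, Slco1a3, Slco1a6 and Slco4c1, but the lowest for Slc22a2 by its brightest probe. The other Slc22a2 probe was lowest on water replicate 2. For Slc22a24 water replicate 1 was the highest, at 0.515 against 0.498 on water replicate 3. Of the 12 proximal tubule markers, Slc7a13 and Ggt1 lay above slide 1 on both slide 2 arrays and 4 lay below. The list's median difference from the water mean ran from -0.03 to 0.03 over the water arrays and from -0.08 to -0.01 over the treated ones. Slc34a1, the phosphate carrier of the early segments, stood at 0.00 ± 0.06 and megalin (Lrp2) at -0.19 ± 0.06. The part of the tubule segments sampled in the carrier values was not tested.

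**Figure D3:**
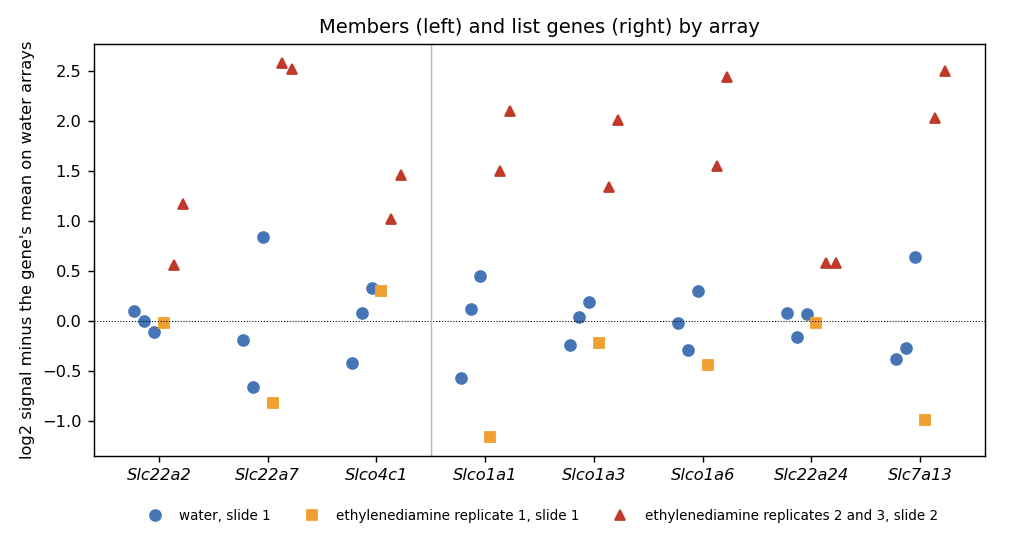
Log2 signal of 3 members (Slc22a2, Slc22a7, Slco4c1) and 5 genes of the fixed lists, each minus its mean on the water arrays, with 1 point per rat. The red triangles, ethylenediamine replicates 2 and 3 on slide 2, lie above all other points for each of the 8 genes, and the orange square, ethylenediamine replicate 1 on slide 1, lies among or below the water points.

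The upstream sequences of these 3 carriers are shown because their transcripts went together over the arrays, beside that of Slc22a5, which stood lower on every treated array. They are the 250 bases before the annotated start, from RefSeq on build GRCr8, which matched 7 of the 9 members. Capitals mark matches, on either strand, to a GC box (GGGCGG) or to the xenobiotic response core (GCGTG). Matches to a TATA box (TATAAA) and a nuclear receptor core (AGGTCA) are reported too.
Slc22a2, chr1:50711020-50711269, minus strand: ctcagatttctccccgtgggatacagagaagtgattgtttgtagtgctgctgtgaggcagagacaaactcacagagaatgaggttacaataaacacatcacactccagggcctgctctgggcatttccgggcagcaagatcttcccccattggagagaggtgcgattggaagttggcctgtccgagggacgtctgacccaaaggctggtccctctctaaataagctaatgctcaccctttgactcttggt
Slc22a7, chr9:22045248-22045497, plus strand: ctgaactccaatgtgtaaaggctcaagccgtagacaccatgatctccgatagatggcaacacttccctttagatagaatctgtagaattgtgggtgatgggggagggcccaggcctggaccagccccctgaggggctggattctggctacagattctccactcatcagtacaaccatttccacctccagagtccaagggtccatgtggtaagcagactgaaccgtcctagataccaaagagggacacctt
Slco4c1, chr9:104676463-104676712, minus strand: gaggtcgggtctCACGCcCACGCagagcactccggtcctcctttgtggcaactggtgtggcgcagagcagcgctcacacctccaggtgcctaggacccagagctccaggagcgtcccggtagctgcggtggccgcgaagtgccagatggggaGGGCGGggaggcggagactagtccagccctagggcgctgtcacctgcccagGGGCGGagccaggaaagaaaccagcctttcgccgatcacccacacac
Slc22a5, chr10:38536073-38536322, minus strand: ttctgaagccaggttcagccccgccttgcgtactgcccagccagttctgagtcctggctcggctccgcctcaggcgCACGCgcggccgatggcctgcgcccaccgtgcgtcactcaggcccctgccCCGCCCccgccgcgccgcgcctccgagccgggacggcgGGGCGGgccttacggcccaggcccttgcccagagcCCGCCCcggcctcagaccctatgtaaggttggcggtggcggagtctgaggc
The windows of Slc22a2 and Slc22a7 held none of these 4 motifs and had a GC content of 51.2% and 52%, where the median of 33469 promoters was 51.2%. Those of Slco4c1 and Slc22a5 were richer in GC, at 67.2% and 74.4%. Slco4c1 had 2 GC boxes and 2 xenobiotic response cores, and Slc22a5 had 3 and 1. A GC box is found in 30.5% and the xenobiotic response core in 25.9% of all promoter windows of this length. Slc22a4 had 2 of each. The TATA box, present in 12.9% of all promoters, and the nuclear receptor core, present in 14.1%, were found in none of the 7 windows. The carriers that went together thus had none of the reported motifs in common. A match is a run of letters and not a shown binding site.

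The carriers differed widely in their within-group SD. The treated arrays lay on both slides, so rats and slides cannot be told apart in the SD of that group. For Slc22a2 the SD was 0.11 in water and 0.59 in treated rats, and for Slc22a7 0.77 and 1.94. The within-group SD was 0.0078 for Slc22a6, 0.0424 for Slc22a8, 0.0747 for Slc22a5 and 0.0897 for Slc47a1, all under the median of 0.115 over all genes. It was 0.218 for Slc22a12, 0.31 for Slc22a4, 0.425 for Slc22a2, 0.492 for Slco4c1 and 1.48 for Slc22a7. Slc22a2 is a bright probe with a spread larger than that of 93.5% of genes, whereas Slco4c1, at 95.4%, is dim.

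**Figure D4:**
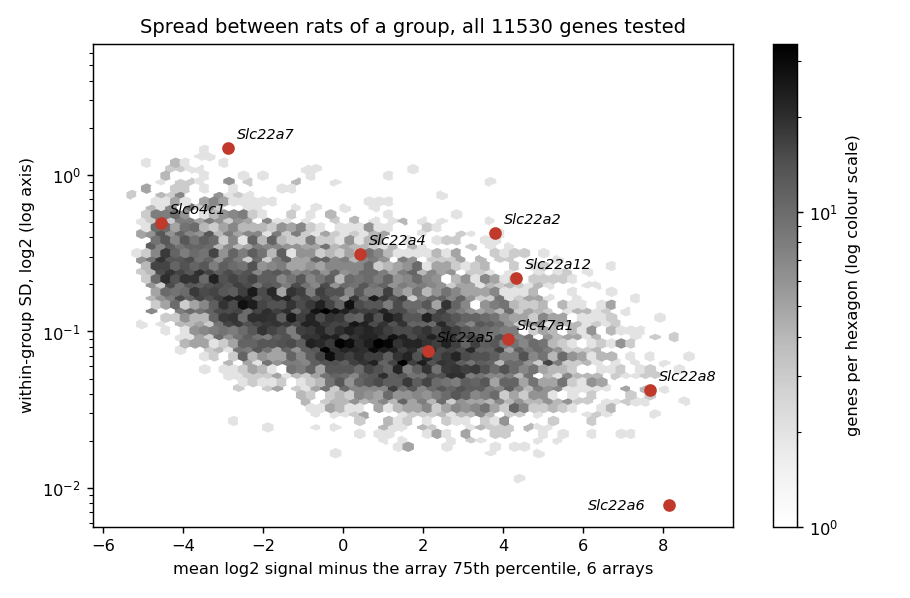
Within-group SD of log2 signal (log axis) against mean log2 signal for the 11530 genes tested, shaded by the number of genes, with the 9 carriers in red. Slc22a6 lies at the lower right with an SD of 0.0078, Slc22a7 at the upper left with 1.48, and Slc22a2 above most genes of its level.

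Over the 6 arrays, the genes whose signal followed Slc22a5 most closely were Hadh, of mitochondrial fatty acid oxidation, Rassf5 and Kyat1, at Pearson's r of 0.989, 0.985 and 0.985. For Slco4c1 they were Arf6, Timm13 and Tm7sf2 (0.997, 0.996 and 0.991), and for Slc22a2 Tigar, Irak4 and Agfg2 (0.996, 0.989 and 0.987). These are the highest of 10929 genes over only 6 arrays that share their 2 groups and slides, and 34, 40 and 67 genes had an r above 0.95 with Slc22a5, Slco4c1 and Slc22a2. They are given as a description.

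The fixed lists around the carriers gave 0 calls by limma. Of the 17 measured among 27 other SLC22, SLC47 and SLCO carriers and the monoamine carrier Slc29a4, 9 had positive and 8 negative fold changes, with a median of 0.09. At an unadjusted p under 0.05, 1 was higher and 1 lower, against 5.37% and 5.03% of all genes, and for the same 2 genes the groups were apart, as for 17.6% of all genes. Slco4a1, a thyroid hormone carrier, read -2.58, -2.74 and -2.36 in water and -1.75, -1.61 and -1.32 in treated rats. Its groups were apart, at 1.00 ± 0.15 (adjusted p = 0.245), and it stood at 0.81 within slide 1. Slc22a23, an orphan member of the family, read 4.93, 4.79 and 4.70 in water and 4.52, 4.23 and 4.56 in treated rats, also apart, at -0.37 ± 0.11 (adjusted p = 0.391). Slco2b1 stood at -0.28 ± 0.13.

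Organic anion and cation carriage rests on gradients set up by other proteins. Of the list for the sodium pump, dicarboxylate carriers, the proton exchanger and brush border scaffolds, all 10 genes were measured (2 further entries are older symbols of the scaffolds Nherf1 and Nherf2), with a median fold change of -0.02 and 1 lower at an unadjusted p under 0.05 (5.03% of all genes). That one was Slc9a3, the sodium-proton exchanger NHE3, at -0.40 ± 0.16 (adjusted p = 0.48), with overlapping groups. The pump subunit Fxyd2 stood at -0.08 ± 0.06 and the sulfate carrier Slc13a1 at -0.18 ± 0.15. Of 11 measured apical anion, urate and drug carriers, 2 were higher (5.37% of all genes) and 1 lower (5.03%) at an unadjusted p under 0.05, with a median of 0.06. These were Abcb1b at 1.64 ± 0.16, the conjugate exporter Abcc2 at 0.50 ± 0.10 and the lactate carrier Slc5a12 at -0.29 ± 0.11. The groups were apart for the first 2 and for the phosphate and urate carrier Slc17a1, at 0.27 ± 0.11, where 9.18% of all genes were apart and higher. Of 9 measured regulators, the glucocorticoid receptor Nr3c1 stood at -0.27 ± 0.09 and the transcription factor Cebpa at 0.34 ± 0.23, with a list median of 0.00. Hnf4a, a nuclear receptor known to drive carriers of the proximal tubule, stood at 0.00 ± 0.16.

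Markers of other cells are given for the same arrays, and 0 of them were called by limma. The median difference from the water mean of 5 injured tubule markers ran from -0.42 to 0.15 in water and was 0.45, 0.83 and 1.54 on ethylenediamine replicates 1 to 3. It was highest on replicate 3, as were Slc22a2 and Slco4c1, whereas Slc22a7 was nearly level on replicates 2 and 3, at -1.02 and -1.08. The injury marker Havcr1 had a fold change of 2.56 ± 0.46 (adjusted p = 0.328 by limma). It passed the filter through the treated arrays alone, being well above background on 2 of the 3 water arrays. On the water arrays it read -5.22, -5.33 and -5.06, near the floor of detection. The median of 6 distal tubule and collecting duct markers was -0.23, -0.43 and -0.55 on ethylenediamine replicates 1 to 3. That of 4 smooth muscle markers was 0.60, 0.63 and 0.45. Limma's unadjusted p was below 0.05 for 4 of 4 smooth muscle and 3 of 5 injured tubule markers, each higher (5.37% of all genes). The same held for 3 of 6 distal tubule and collecting duct and 2 of 12 proximal tubule markers, each lower (5.03% of all genes). The groups were apart for 4 smooth muscle and 2 injured tubule markers, each higher (9.18% of all genes). They were apart for 3 distal tubule and collecting duct and 2 proximal tubule markers, each lower (8.39% of all genes). The injured tubule counts of 3 and 2 include Havcr1. It was kept only through the arrays where it was high, so its place in these counts is no support. The median fold changes of the other lists were -0.02 for 4 thick ascending limb markers, -0.11 for 5 podocyte markers, -0.09 for 4 endothelial markers, -0.05 for 4 leukocyte markers and -0.02 for 3 inner medullary markers, with 0 markers of these lists at an unadjusted p under 0.05 and 0 called by limma. Of the thick ascending limb markers, Umod alone had a positive fold change, at 0.25 ± 0.17. The part of these cells in the carrier values was not tested.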

How the data were processed

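Renal cortex RNA of 6 rats was hybridised to 1-colour Agilent arrays, 3 per group. Each array is a different animal, per the labels. The scanner output deposited for each array gives spot intensity on a linear scale. Per the file headers, Agilent's Feature Extraction software (10.7.1.1) had removed background and spatial trend, on a grid built on rn4. The deposited table of processed signal holds the same values divided by a constant close to each array's 75th percentile, with column medians from 0.1046 to 0.1104, and served as an alternative. Its scaling is not given in the sources used here and was found by comparison with the scanner values.

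The main values were log2 intensity minus the 75th percentile of the array. Control spots (1439) and 22 probes with an outlier flag were left out, and 0 spots were saturated. Probes were named through RefSeq accessions (GRCr8, names only). A probe was kept if well above background on all 3 arrays of a group, and the brightest stood for its gene. The comparison used limma (3.58.1, R 4.3.3) with a mean per group (lmFit, eBayes, Benjamini-Hochberg over all genes, threshold 0.05; 4 residual and 1.84 prior degrees of freedom). On simulated data for 11530 genes it found 88 of the 100 genes set to a 2-fold change and 99 of the 100 set to 4-fold, with 9 false calls. These genes were all altered in the same simulation. They were picked at random, and the simulated noise was independent between arrays, with each gene's spread from the moderated fit and no slide effect. The recovery therefore does not apply to carriers with a wide spread, such as Slc22a2, Slc22a7 and Slco4c1, or to arrays that differ by slide. The number of arrays limits the precision. Normexp used the median spot signal, the foreground column of the files used here.

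The members, lists and tests were chosen with earlier results of these data known. The text names the 9 members, the 3 genes of each pathway list with the smallest p, the 3 genes most like each of the 3 members with the smallest p, and Lrp2, Slc34a1, Havcr1 and Umod. Other names were chosen after their values were seen. Some genes that this rule names and 1 searched motif are not reported here. Same-numbered replicates of the 2 groups did not deviate together (correlations -0.003, 0.022 and -0.008), which gave no sign that the numbers pair the rats. With 3 arrays per group, and the treated ones on 2 slides, these correlations cannot exclude a pairing. Probe sequences were not used here, so cross-hybridisation between related carriers was not checked.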

Additional observations from a re-analysis of the deposited data

How the results depend on the processing

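Over 19 alternatives, 6 of them leaving out 1 array each, 0 carriers and 0 carrier probes were called by limma. Slc22a5, Slc22a12 and Slco4c1 kept their direction in every alternative that measured them (19, 19 and 18), with Slc22a5 between -0.295 and -0.154. With the slide as a block, and likewise within slide 1, which rest on the 1 treated array there, the values were -0.017 for Slc22a2, -0.133 for Slc22a4 and -0.819 for Slc22a7. Slc22a2 and Slc22a7 were positive in the other alternatives that measured them, and Slc22a4 was not (-0.035 without water replicate 1 and -0.001 without ethylenediamine replicate 2). Slc22a6 turned negative under median scaling (-0.007), quantile scaling (-0.006) and the mean of its probes (-0.08), and Slc22a8 under the mean of its probes (-0.011). Without 1 array at a time, Slc22a4 ranged from -0.035 to 0.295 and Slc47a1 from -0.002 to 0.098. The alternatives that turned a sign take other arrays, other probes or another centre, and why a sign turned was not tested. Of all genes, 0 were called in the main setting, with 1 under an intensity trend, 10 with the slide as a block, 6 within slide 1 and from 0 to 1 without 1 array. With the replicate block, 0 genes and 0 carriers were called, and Slco4c1 stood at 0.928 (adjusted p = 0.372). Without ethylenediamine replicate 1, limma's unadjusted p was under 0.05 for 3 carriers that were higher and 1 that was lower, 4 of 9 in all, where 13.5% of all genes passed in either direction. That setting leaves each group on its own slide, so treatment and slide cannot be told apart in it. The 3 higher carriers were Slc22a2, Slc22a7 and Slco4c1, already picked out above for their values on the slide 2 arrays. The filter on all 6 arrays left out Slc22a7 and Slco4c1, which were not well above background on ethylenediamine replicate 1. The cause of the spread of Slc22a7 was not tested.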
